A study of Schizosaccharomyces pombe with 31 samples.

Results

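The early response to nitrogen starvation was examined in fission yeast cells that lack the Greatwall kinases Ppk18 and Cek1 (*ppk18*∆ *cek1*∆). RNAseq libraries of 3 cultures after 1 h in minimal medium without nitrogen (MM-N) were compared with those of 3 cultures in minimal medium (MM), which are 6 of the 31 libraries of the series and 6 of the 27 of its time course. The cells were h- *ppk18*::KanMX6 *cek1*::natMX6. The same comparison in h- *igo1*::kanMX6 cells (*igo1*∆, 6 libraries) and in the h- 972 wild type (6 libraries) served as references. Cells in exponential growth were spun down, washed in MM-N and kept in it at 25 °C, and the MM samples were taken at 0 h, so that time, washing and the loss of nitrogen cannot be told apart. The genotype label calls the genes knocked down, while the strain names give marker insertions in them, and the deletion strain is a single strain in which the related kinase gene *ppk31+* is intact. The labels number the 3 samples of each group as biological replicates.

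TORC1 is a kinase complex that drives growth while nitrogen is plentiful, and it keeps Greatwall inactive. Loss of nitrogen lifts this block. Greatwall then turns Endosulfine, the product of *igo1+*, into an inhibitor of a phosphatase, PP2A with its B55 subunit. TORC1 also has targets outside this pathway. The comparison therefore asks which part of the first hour of the transcriptional response is seen in cells without the main Greatwall kinases.

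The values are normalised read counts per gene, that is, read counts divided by a size factor for each library. Between 17899499 and 19930596 reads were counted on genes at 1 h, against 15971778 to 21223569 in MM. The deleted genes were low in every *ppk18*∆ *cek1*∆ library. For *ppk18+* (SPAPB18E9.02c), 246, 219 and 199 normalised counts were left at 1 h and 220, 194 and 179 in MM, against 3776 to 5746 in the 6 wild type libraries. For *cek1+* (SPCC1450.11c), 34.4, 34.0 and 50.7 were left at 1 h and 35.6, 23.9 and 165 in MM, against 2884 to 3811 in the wild type. The *cek1+* value of 165 belongs to MM replicate 3, which also lay apart from the other MM libraries on the second principal component (3.2% of the variance), while the first, with 91.3%, separated 1 h from MM. Of the markers of the mating type that these h- cells should have, 7 of 9 were high enough to be tested. All 9 together summed to 3508 to 4509 normalised counts at 1 h, against 2587 to 3273 in MM. The gene *mat1-Mc*, a transcription factor gene of that type, had 0 reads in the 6 libraries. Of the 5 markers of the other mating type, 3 were matched and summed to 10529 to 11368 at 1 h, against 8169.5 to 8769 in MM, nearly all of it from *sxa1+*, and neither *map2+* nor *map3+* passed the test. The part of these markers in the results was not tested.

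After 1 h without nitrogen, most genes had a different level in *ppk18*∆ *cek1*∆ cells. Of 6036 genes tested, 4677 (77.5%) had an adjusted *p* below 0.05 (limma on log2(normalised count + 1), Benjamini-Hochberg adjustment) and are called changed here, 2369 of them higher (39.2%) and 2308 lower (38.2%). A change of more than 2-fold was found for 672 genes that rose (11.1%) and 725 that fell (12%). The 3 libraries at 1 h did not overlap with the 3 in MM for 77.7% of the genes. The normalised counts of a library summed to between 16826352 and 16916847 at 1 h, against 20658631 to 22085821 in MM, so the split into rises and falls depends on the scaling. When every library was brought to the same total, the median of all genes moved up by 0.35 on the log2 scale, and 3552 genes were higher and 1371 lower, so that 72.2% of the calls were rises rather than 50.7%. With the deposited scaling the median log2 fold change of all genes tested was 0.02, and the values below are given on that scale. Because so many genes changed, a count of called genes in a list says little by itself, and list medians are given beside the counts.

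**Figure D1:**
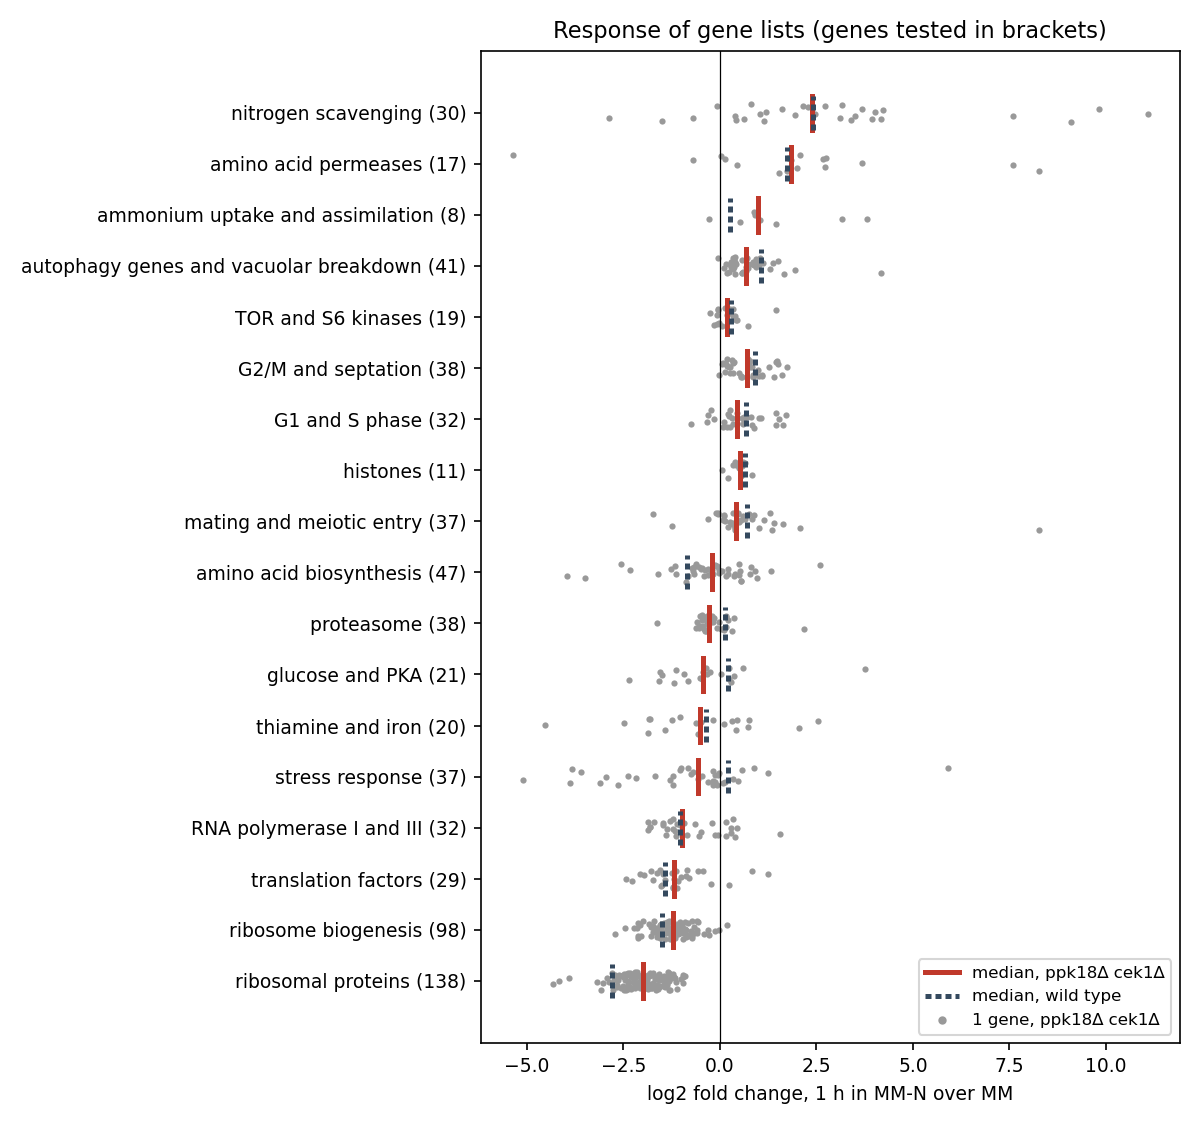
Log2 fold change after 1 h in MM-N over MM for each gene (grey points) of 18 gene lists, with the number of genes tested in brackets. Red bars are the medians in *ppk18*∆ *cek1*∆ and dotted dark bars those in the wild type. Nitrogen scavenging genes (median 2.38) and ribosomal protein genes (median -1.98) lie at the ends, and the lists with the widest gaps between the bars include ribosomal proteins, stress response, ammonium uptake and amino acid biosynthesis.

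The steepest rises were those of genes for the use of nitrogen sources other than ammonium. Of 30 genes tested in the nitrogen scavenging list, 24 were higher and 3 lower, with a median log2 fold change of 2.38 in *ppk18*∆ *cek1*∆ and 2.41 in the wild type. The list took the SPAC869 genes by name, with *sul2+*, *mel1+*, *pcm2+* and *yhb1+* among them, so it is not limited to nitrogen genes. Genes of the SPAC869 group led the list. SPAC869.04, annotated as a formamidase-like protein, had 11172, 10473 and 9581 normalised counts at 1 h, against 9.58, 2.08 and 2.34 in MM (log2 fold change of 11.09 with an SE of 0.279, adjusted *p* = 2.67e-20 by limma and Benjamini-Hochberg). It was thus nearly silent before starvation and among the well expressed genes after it. The urea transporter gene SPAC869.03c had 9435, 8478 and 7391 at 1 h, against 9.58, 7.28 and 8.17 in MM (log2 fold change of 9.82). The amidase gene SPAC869.01 had 17466, 16484 and 15215 at 1 h, against 32.9, 39.5 and 18.7 in MM (9.09). All of these libraries lay far apart, with no overlap. Not every gene of the group moved this way, since the sulfate transporter gene *sul2+* (SPAC869.05c) fell by 2.88 on the log2 scale. The esterase/lipase gene SPAC1039.03 (4.22), the alanine-glyoxylate transaminase gene SPAC1039.07c (4.03) and *klf1+*, for a zinc finger transcription factor (2.47), also rose.

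Several genes outside that list were among the steepest rises. The nucleosidase gene SPBC800.11 had 33520, 35425 and 36032 normalised counts at 1 h, against 360, 372 and 396 in MM (log2 fold change of 6.54). The uracil-regulated gene *urg1+*, annotated as a GTP cyclohydrolase II, had 21368, 13623 and 18056 at 1 h, against 151, 121 and 73.6 in MM (7.29). The fatty acid amide hydrolase gene *fah2+* rose by 5.49. The uracil permease gene *fur4+*, a member of the list (3.49), averaged 15677 ± 1210 at 1 h and 1394 ± 24.5 in MM (SD, n = 3 each). For 3 other genes among the 15 steepest rises only 4 reads were counted over the 3 MM libraries. These were the alanine racemase gene *alr2+* (281-fold, 95% counting interval of 110.0 to 1030.0), a second urea transporter gene, SPBPB8B6.02c (276-fold, 107 to 1010.0), and the uncharacterised SPAC9E9.17c (98.1-fold, 38.1 to 361). Their size is therefore known only roughly, and the intervals cover counting error only. The 15 also held *cta3+*, for a calcium ATPase (5.90), the transcription factor gene SPBC1773.12 (8.08), the uncharacterised SPAPJ695.02 (5.80) and 3 permease genes, *nrg1+*, *isp5+* and SPBC359.01.

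Permeases that bring amino acids and peptides into the cell formed the next group. Of 17 genes tested in the amino acid permease list, 14 were higher and 2 lower (median of 1.84 in *ppk18*∆ *cek1*∆ and 1.75 in the wild type). The list holds *vhc1+* and *svp26+*, which are not annotated as permeases. The permease gene *isp5+* had 62241, 65504 and 68189 normalised counts at 1 h, against 381, 378 and 264 in MM (log2 fold change of 7.60 with an SE of 0.157, adjusted *p* = 6.94e-22 by limma and Benjamini-Hochberg). A permease gene that the annotation names *nrg1+* (SPBPB2B2.01) had 21787, 20505 and 19581 at 1 h, against 76.7, 63.5 and 59.6 in MM (8.26 with an SE of 0.101, adjusted *p* = 1.44e-25 by limma and Benjamini-Hochberg). The permease gene SPBC359.01 rose by 6.48 and the proline permease gene *put4+* by 3.67, and the level of *put4+* averaged 44198 ± 1883 at 1 h, against 3465 ± 233 in MM (SD, n = 3 each). The peptide transporter genes *isp4+* (3.10) and *ptr2+* (2.29) rose too. The fall of 5.36 of SPBC1652.02, an amino acid transporter gene, was the steepest among the coding genes named by rule, with 68.9, 62.4 and 90.3 normalised counts at 1 h, against 3105, 3012 and 3000 in MM. The non-coding RNA SPNCRNA.577 overlaps it and had 14319, 15627 and 16628 at 1 h, against 50.7, 29.1 and 12.8 in MM (log2 fold change of 9.12, the steepest rise among the non-coding RNAs named by rule). Whether the counting used the strand of the reads is not given in the sources used here, so levels of overlapping genes such as these are uncertain, which applies to 31 of the 57 genes named by rule.

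**Figure D2:**
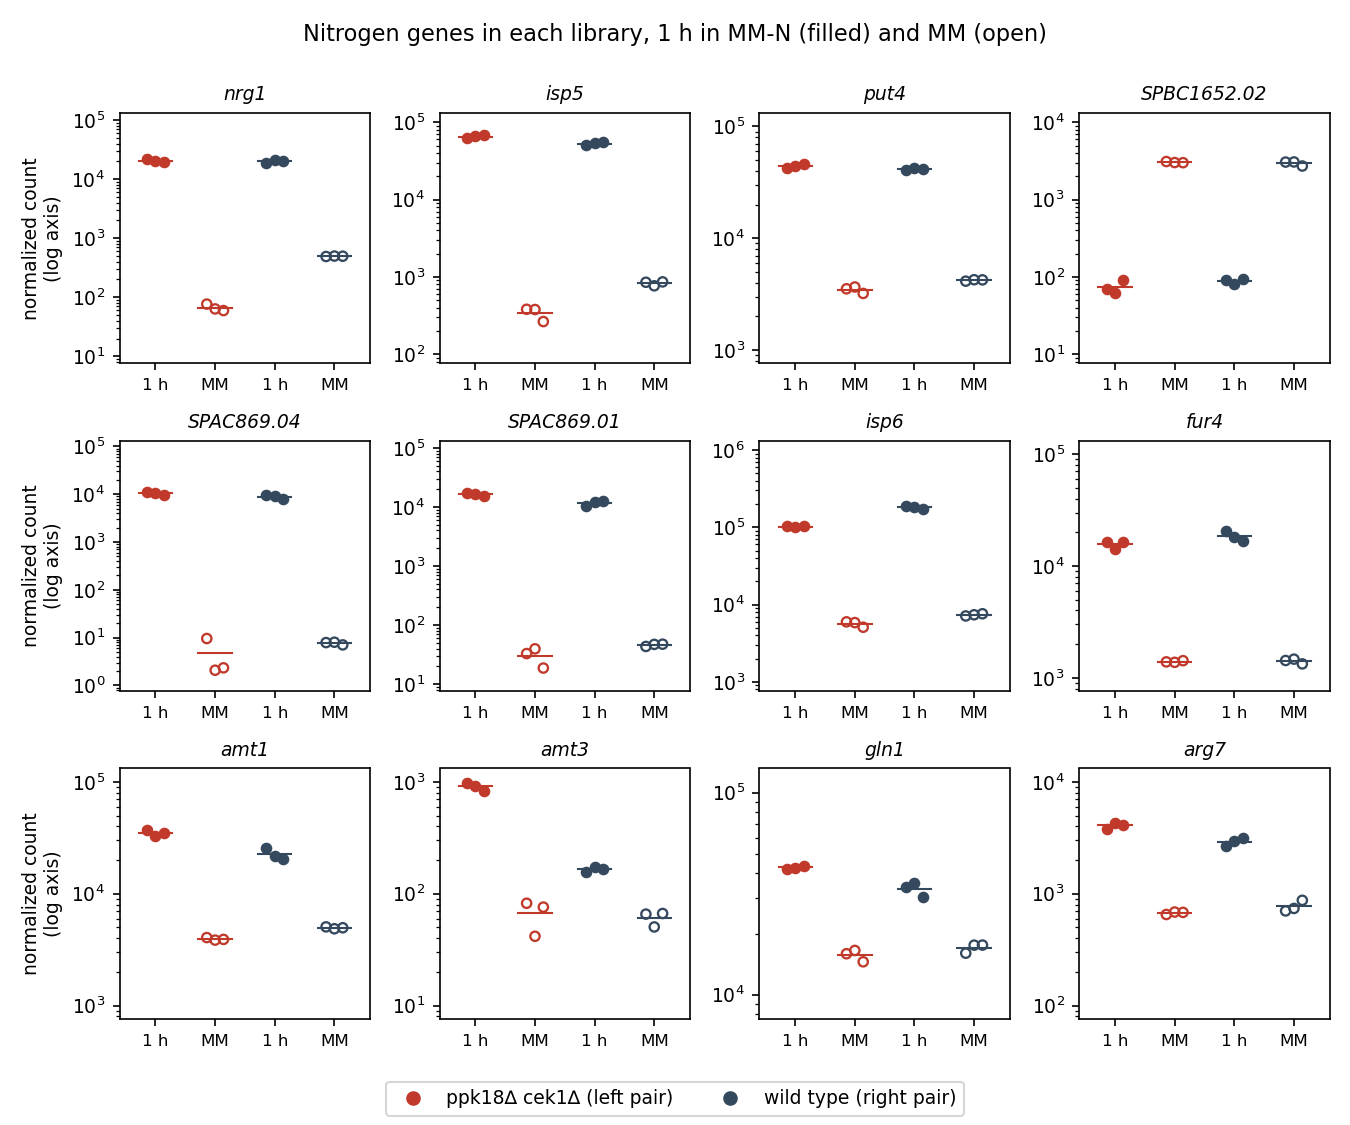
Normalised counts on a log axis in each library for 12 genes of nitrogen supply, with 3 libraries per group at 1 h in MM-N (filled) and in MM (open), *ppk18*∆ *cek1*∆ on the left and wild type on the right of each panel. Bars are means of 3. For *nrg1+* and *isp5+* the libraries at 1 h are at similar heights in both strains, while those in MM are lower in *ppk18*∆ *cek1*∆, and for *amt3+* it is the 1 h libraries that differ.

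Most genes of ammonium uptake and assimilation rose. Of 8 genes, 7 were higher and 1 lower, and their median log2 fold change was 0.98 in *ppk18*∆ *cek1*∆ and 0.26 in the wild type. The ammonium transporter gene *amt1+* had 37183, 33124 and 34729 normalised counts at 1 h, against 4051, 3845 and 3900 in MM (8.90-fold by the means). The related *amt3+* had 979, 919 and 835 at 1 h, against 82.1, 41.6 and 75.9 in MM (3.81), which is the larger rise from a far lower level. The third transporter gene, *amt2+*, rose by 0.52. Glutamine synthetase (*gln1+*), which joins ammonium to glutamate, had 41915, 42575 and 43574 at 1 h, against 15952, 16563 and 14549 in MM (1.45). Genes for the glutamate-forming enzymes *gdh1+* (1.05) and *glt1+* (0.88) and for asparagine synthetase, *asn1+* (0.92), rose by less, and *gdh2+*, whose enzyme releases ammonium from glutamate, changed by -0.28, a sign that turns under scaling to the same total (0.067). In each of these genes the difference between the response of *ppk18*∆ *cek1*∆ and that of the wild type was called, above 0 in 7 and below 0 in *gdh2+*. By the same test, 23.7% of all genes tested were called above 0 and 21.7% below.

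In the amino acid biosynthesis list the changes ran in both directions. Of 47 genes, 16 were higher and 25 lower, with a median of -0.21 in *ppk18*∆ *cek1*∆ and -0.86 in the wild type, and the median in the deletion strain was above 0 under a scaling to the same total (0.14) and under quantile normalisation (0.11). Subgroups of the list, formed after the values were seen, are given as counts over every member. Of the 8 arginine genes (*arg*), 8 were higher (median of 0.78), among them *arg7+* with 3829, 4286 and 4153 normalised counts at 1 h, against 652, 686 and 681 in MM (log2 fold change of 2.60), *arg11+* (1.32) and *arg12+* (0.96). Of the 9 sulfur genes (*met*, *cys*, *sir* and *sua*), 7 were lower and 2, *met6+* (0.40) and *met11+* (0.38), higher (median of -1.26). The sulfate adenylyltransferase gene *sua1+* had 2826, 3334 and 3071 at 1 h, against 50137, 52795 and 41954 in MM (-3.97). *cys2+* (-3.48), the sulfite reductase gene *sir1+* (-2.56) and *met14+* (-2.33) were lower too. Outside the list, the homocysteine synthase gene *met17+* (-4.15) and the sulfate transporter gene *sul1+* (-3.79) were among the 15 steepest falls. Of 7 branched-chain genes (*ilv* and *leu*), 5 were lower and 2 higher (median of -0.61), with *ilv5+* at -1.16 and *leu2+* at 0.49. Of 6 histidine genes 2 were higher and 2 lower, of 4 tryptophan genes 1 was higher and 2 were lower, and of 7 lysine genes 0 were higher and 4 lower. The nitrogen-linked eIF2α kinase gene *gcn2+*, which in budding yeast responds to uncharged tRNA, rose by 1.24 and averaged 8688 ± 575 at 1 h and 3677 ± 93.4 in MM (SD, n = 3 each).

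The machinery that makes proteins fell. All 138 ribosomal protein genes tested were called lower, with log2 fold changes between -4.31 and -0.90 and a median of -1.98 (wild type median of -2.80). Of these, 134 fell more than 2-fold. Their share of all normalised counts was 4.37, 5.04 and 4.76% at 1 h, against 13.3, 13.9 and 12.8% in MM, so the libraries did not overlap. In the wild type it was 2.54 to 3.24% at 1 h and 13.4 to 14.5% in MM. The genes *rpp1+*, *rpp21+* and *rpp40+*, matched by the pattern used to find them, encode RNase P or MRP subunits and were left out. Among the steepest falls were *rpl1603+* (74.1, 116 and 99.6 normalised counts at 1 h, against 1717, 2014 and 2012 in MM, log2 fold change of -4.31), *rpp203+* (-4.17) and *rpl3002+* (-3.92). Many ribosomal proteins have a second, near-identical gene, and reads shared by such copies may have been split between them or lost in the counting, so the value of a single copy is uncertain.

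Ribosome assembly factors moved the same way, with 95 of 98 lower and 1 higher (median of -1.22 in *ppk18*∆ *cek1*∆ and -1.50 in the wild type). The gene *gar1+*, for a protein of the particles that modify ribosomal RNA, fell most, to 1122 ± 51.7 at 1 h, against 7365 ± 296 in MM (SD, n = 3 each, log2 fold change of -2.71), and *esf2+* was the gene that rose, by 0.20. Of 32 genes of RNA polymerases I and III and their factors, 22 were lower and 8 higher (median of -0.97), and the large subunit of polymerase I, *nuc1+*, fell by 1.87. The gene of Maf1, a repressor of polymerase III, went the other way, with 1087 ± 29.2 at 1 h and 369 ± 16.9 in MM (SD, n = 3 each, 1.56). Of 29 translation factor genes, 26 were lower and 3 higher (median of -1.20), among them *tif1+*, for initiation factor eIF4A (-2.28), and the elongation factor gene *tef103+* (-2.42). The 3 that rose were *gcn2+*, *fil1+* (0.84), which encodes a transcription factor, and *gcn3+*.

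Of the 10 genes of the stress response list annotated as heat shock or DNAJ proteins, a subgroup formed after the values were seen, 10 were lower (median of -2.80). The Hsp70 gene *ssa2+* had 6581, 6728 and 6237 normalised counts at 1 h, against 233886, 227567 and 207164 in MM (log2 fold change of -5.09 with an SE of 0.062, adjusted *p* = 1.44e-25 by limma and Benjamini-Hochberg). The gene *hsp90+* had 8096, 8491 and 8212 at 1 h, against 120166, 115922 and 115344 in MM (-3.83), and the disaggregase gene *hsp104+* had 1164, 1136 and 1130 at 1 h, against 11049, 9431 and 9274 in MM (-3.11). The co-chaperone genes *wis2+* (-4.82), *psi1+* (-2.96) and *mas5+* (-2.64), the second Hsp70 gene *ssa1+* (-3.59) and the mitochondrial *hsp78+* (-2.37) were lower in the same manner, with no overlap between the groups in any of them. The small heat shock genes *hsp16+* (-1.20) and *hsp20+* (-0.57) changed less, and another member of the subgroup, *hsp9+*, is described below. All of these but *wis2+* are part of the stress response list of 37 genes, of which 25 were lower and 7 higher, with a median of -0.57 in *ppk18*∆ *cek1*∆ and 0.22 in the wild type. Besides *cta3+*, the members that rose included the metallothionein gene *zym1+* (1.25) and the gene of the eIF2α kinase Hri1 (0.56).

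**Figure D3:**
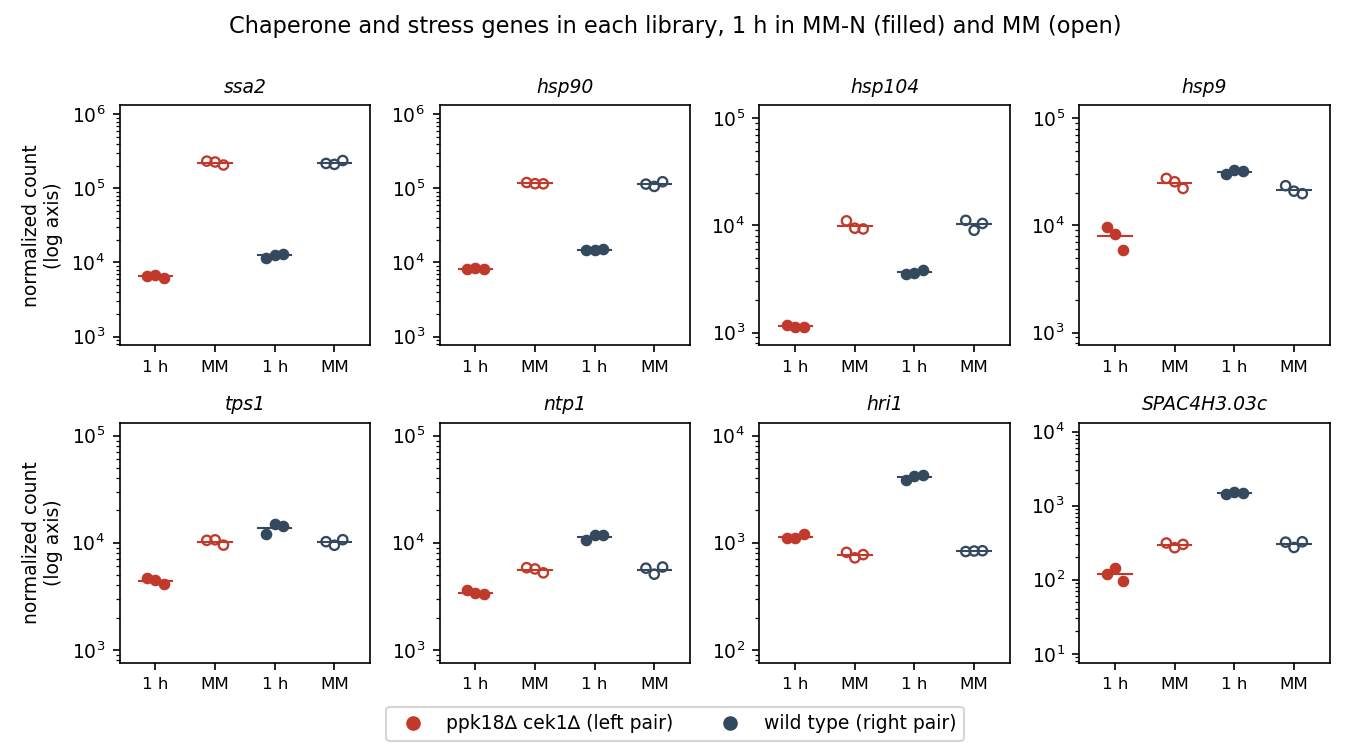
Normalised counts on a log axis in each library for 8 chaperone and stress genes, with 3 libraries per group at 1 h in MM-N (filled) and in MM (open), *ppk18*∆ *cek1*∆ on the left and wild type on the right of each panel. Bars are means of 3. The fall of *ssa2+*, *hsp90+* and *hsp104+* is present in both strains, while *hsp9+*, *tps1+*, *ntp1+* and SPAC4H3.03c are below their MM level at 1 h in *ppk18*∆ *cek1*∆ and above it in the wild type.

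Trehalose is a sugar that protects resting cells. The trehalose-phosphate synthase gene *tps1+* had 4724, 4469 and 4073 normalised counts at 1 h, against 10529.8, 10642 and 9494 in MM (log2 fold change of -1.21), and the trehalase gene *ntp1+* had 3602, 3379.7 and 3298 at 1 h, against 5846, 5689 and 5233 in MM (-0.70). In the wild type *tps1+* and *ntp1+* changed by 0.43 and 1.03. SPAC22F8.05, annotated as a trehalose-phosphate synthase, fell by 1.36, and the phosphatase gene *tpp1+* was not called (0.08). The glutathione peroxidase gene *gpx1+* changed by -1.02 and the catalase gene *ctt1+* by -0.47, while their values in the wild type were 0.43 and 0.91. Other steep falls were those of the siderophore transporter gene *str1+* (-4.53), the sorbose reductase gene SPAC8E11.10 (-4.50), the adenine phosphoribosyltransferase gene *apt1+* (-4.20), the glycerol-3-phosphate dehydrogenase gene *gut2+* (-3.87) and the uncharacterised SPBPB2B2.08 (-4.21). In a list of 20 thiamine and iron genes, 7 were higher and 12 lower (median of -0.52), with *nmt1+* down by 1.80, and *fep1+*, the gene of the iron-sensing repressor, up by 2.06. Of 21 genes of glucose uptake and protein kinase A signalling, 5 were higher and 10 lower (median of -0.43). The hexose transporter gene *ght5+* fell by 2.36.

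Autophagy recycles cytoplasm in the vacuole when nutrients run out. Of 41 genes for its steps and for vacuolar breakdown, 38 were higher and 0 lower in *ppk18*∆ *cek1*∆, with a median of 0.67 (wild type median of 1.06), and 9 rose more than 2-fold. The vacuolar protease gene *isp6+* stood apart, with 102703, 99760.2 and 102612 normalised counts at 1 h, against 5979, 5849 and 5097 in MM (log2 fold change of 4.17). The kinase gene *atg1+*, which starts the process, had 3493, 2580.1 and 3504 at 1 h, against 1121, 1049.99 and 864 in MM (1.65). The receptor genes *nbr1+* (1.95) and *atg43+* (1.31), the protease gene *atg4+* (1.39) and *atg8+*, whose product coats the autophagosome membrane (0.83), rose as well. The difference from the wild type was called below 0 for 34 of the 41 genes and above 0 for 0 (limma with Benjamini-Hochberg adjustment). For comparison, 21.7% of all genes tested were called below 0 and 23.7% above.

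Most genes in the lists of the division cycle were higher at 1 h. Of 38 genes of mitosis and septation, 33 were higher and 0 lower (median of 0.71), and of 32 genes of G1 and S phase 25 were higher and 4 lower (median of 0.44). The wild type medians were 0.9 and 0.67. In the first list 19 differences from the wild type were called below 0 and 2 above, and in the second 16 and 3. Of all genes tested, 21.7% were called below 0 and 23.7% above. The replication licensing gene *cdc18+* averaged 3388 ± 75.5 normalised counts at 1 h and 1037 ± 73.6 in MM (SD, n = 3 each, log2 fold change of 1.71), and its partner *cdt1+* rose by 1.47. The septum glucanase genes *eng1+* (1.49) and *agn1+* (1.51) and *srw1+*, for an activator of the anaphase-promoting complex needed for G1 arrest (1.63), rose too. Histone genes were higher in 10 of 11 cases, with a median of 0.51 (0.65 in the wild type). Since the share of cells in each phase was not measured in these samples, a change in the level per cell and a change in the share of cells cannot be told apart.

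Mating genes, which starvation opens the way to, were less uniform. Of 37 tested, 22 were higher and 3 lower (median of 0.41, and 0.71 in the wild type). One of the 22, *nrg1+*, is in that list by its name only and is the permease gene described above. The gene of the mating regulator Ste11 fell, with 366, 225 and 369 normalised counts at 1 h, against 789, 549 and 941 in MM (log2 fold change of -1.25), and in the wild type it changed by -1.29. The G protein gene *gpa1+* (1.29) and the pheromone gene *mfm1+* (2.07) rose, and *mfm1+* averaged 162 ± 60.9 at 1 h and 36.4 ± 4.86 in MM (SD, n = 3 each). Proteasome genes had a median of -0.29 in *ppk18*∆ *cek1*∆, with 26 of 38 lower and 8 higher, and a median of 0.13 in the wild type. The polyubiquitin gene *ubi4+* was the exception in size, with a rise of 2.18. Under scaling to the same total, the median of the proteasome list was 0.06, and its direction in *ppk18*∆ *cek1*∆ therefore rests on the scaling. With the deposited scaling, the difference from the wild type was called below 0 for 32 of the 38 genes and above 0 for 1. The shares over all genes tested were 21.7% below and 23.7% above.

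Of the 9 genes of the Greatwall, Endosulfine and PP2A list, which includes the deleted ones, 3 were higher and 4 lower (median of -0.22, and 0.10 without MM replicate 3 and 0.13 under scaling to the same total), and only *ppk31+*, for the related kinase, moved more than 2-fold. It had 148, 127 and 130 normalised counts at 1 h, against 47.9, 78.0 and 61.9 in MM (log2 fold change of 1.12 with an SE of 0.202, adjusted *p* = 2.68e-05 by limma and Benjamini-Hochberg). In the wild type it had 69.3, 97.4 and 65.4 at 1 h, against 61.7, 90.6 and 60.5 in MM (0.13), and in *igo1*∆ it changed by 1.02. The Endosulfine gene *igo1+* rose by 0.30, the PP2A scaffold gene *paa1+* fell by 0.50 and the B55 gene *pab1+* changed by 0.09. Of 19 genes of the TOR complexes, their regulators and S6 kinases, 9 were higher and 2 lower (median of 0.18). The largest rise among them was that of *tsc1+*, for a subunit of the complex that restrains TORC1, with 5372, 5090.3 and 5682 at 1 h, against 1993, 1919 and 1937 in MM (1.46), followed by the GTPase gene *gtr2+* (0.74), while *tor2+*, the TORC1 kinase gene, rose by 0.38.

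Among long non-coding RNAs, rises outnumbered falls. Of 929 tested, 487 were higher and 138 lower, with a median of 0.51, against 1839 higher and 2141 lower of 4990 coding genes, with a median of -0.06. In the wild type these medians were 0.22 and 0.02. For the long non-coding RNAs, 248 differences from the wild type were called above 0 and 49 below. Among all genes tested, 23.7% were called above 0 and 21.7% below. The 248 of 929 is near the first share, while the 49 is well under the second. As the strand setting of the counting is not given, reads of overlapping genes may be part of these counts. All 1387 long non-coding RNAs of the table, those too low to be tested included, made up 2.23, 2.13 and 2.14% of the normalised counts at 1 h, against 1.21, 1.09 and 1.06% in MM. Besides SPNCRNA.577, the largest rises were those of SPNCRNA.935 (6.89), SPNCRNA.451 (6.87) and SPNCRNA.1364 (5.57). SPNCRNA.451 overlaps no other gene of the table and had 985 ± 44.1 at 1 h and 8.21 ± 4.83 in MM (SD, n = 3 each). The largest falls were those of SPNCRNA.1190 (-3.84), SPNCRNA.1115 (-2.77), SPNCRNA.645 (-2.70) and SPNCRNA.652 (-2.67).

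The response without Ppk18 and Cek1 was then set against that of the wild type. Of the 728 genes that rose more than 2-fold in the wild type, 670 were also called higher in *ppk18*∆ *cek1*∆, 11 were called lower and 47 were not called. Of 857 that fell more than 2-fold, 811 were called lower and 1 higher. In the other direction, 594 of the 672 rises and 684 of the 725 falls past 2-fold in *ppk18*∆ *cek1*∆ were called in the same direction in the wild type. By the test of the difference, 283 of the 728 rises and 496 of the 857 falls were smaller in *ppk18*∆ *cek1*∆, and 120 and 49 were larger. For the rises and falls chosen in *ppk18*∆ *cek1*∆, 94 and 319 were smaller there and 257 and 124 larger. Choosing genes by 1 strain favours a larger response in that strain. The Pearson correlation of the log2 fold changes across the 6036 genes was 0.88, and the strains share no library, although genes are not independent of each other. The test of the difference itself (limma with Benjamini-Hochberg adjustment) called 2736 genes (45.3%), with the value in *ppk18*∆ *cek1*∆ above that in the wild type for 1429 (23.7%) and below it for 1307 (21.7%). With every library brought to the same total, 39.9% of the calls were above (1020 above and 1538 below) rather than 52.2%. For 212 genes the calls in the strains were opposite, 72 of them higher in *ppk18*∆ *cek1*∆ and lower in the wild type and 140 the other way round. All 212 also passed the test of the difference, but opposite calls from the same fit make this nearly certain, so it adds no support. Wild type replicate 1 at 1 h lay apart from its group, and without it the counts were 1332 above and 1198 below.

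**Figure D4:**
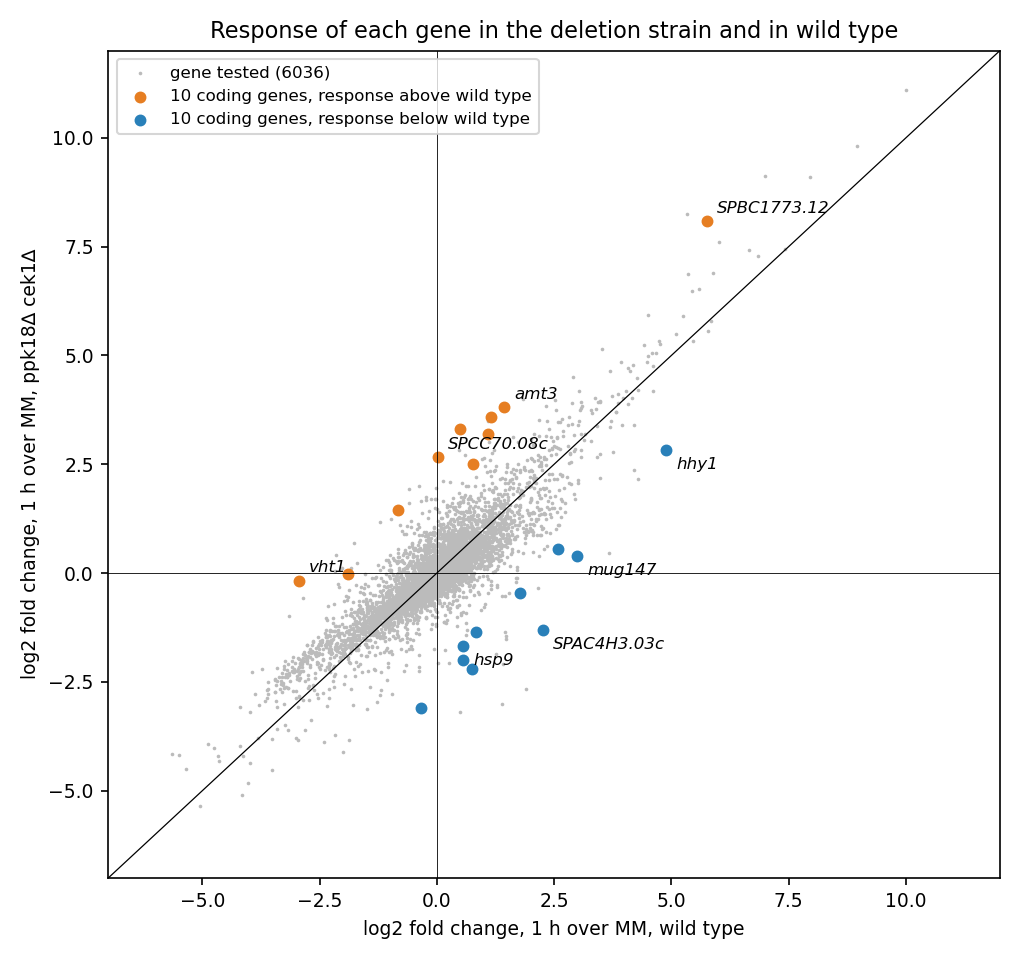
Log2 fold change after 1 h in MM-N over MM in *ppk18*∆ *cek1*∆ (vertical axis) against that in the wild type (horizontal axis) for the 6036 genes tested, with the line of equal change. Coloured points are the 10 coding genes with the largest called difference in each direction among those whose 1 h libraries do not overlap between the strains and whose mean is at least 50, so that *nrg1+* (2.93), whose 1 h libraries overlap, is left out. Most genes follow the line (Pearson correlation across genes of 0.88), with *vht1+* and SPCC70.08c among the points above it and SPAC4H3.03c and *mug147+* among those below.

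Among the coding genes whose libraries at 1 h did not overlap between the strains, the 10 with a response furthest below the wild type included several of carbohydrate metabolism. SPAC4H3.03c, annotated as a glucan 1,4-alpha-glucosidase, had 119, 143 and 95.4 normalised counts at 1 h and 314, 271 and 300.1 in MM in *ppk18*∆ *cek1*∆, against 1422, 1513 and 1464 at 1 h and 322, 273 and 326 in MM in the wild type. The strains thus began at similar levels and SPAC4H3.03c moved in opposite directions in them, by -1.32 and 2.26 (difference of -3.57 with an SE of 0.156, adjusted *p* = 1.27e-13 by limma and Benjamini-Hochberg). The small heat shock gene *hsp9+* had 9697, 8252 and 5906 at 1 h in *ppk18*∆ *cek1*∆, against 30129, 32779.5 and 31991 in the wild type, from similar levels in MM (difference of -2.25). The other genes were *lsd90+* (-2.95), *ddr48+* (-2.76), *mug147+* (-2.61), the phosphoketolase gene SPBC24C6.09c (-2.55), the gluconate transporter gene *ght3+* (-2.24), SPAC22F8.05, annotated as a trehalose-phosphate synthase (-2.19), *hhy1+* (-2.07) and SPCC338.18 (-2.03). In the stress response list as a whole, 26 of 37 genes were below the wild type and 0 above. The differences for *tps1+* (-1.64), *ntp1+* (-1.73) and *hri1+* (-1.73) were also called, as was that of the mating kinase gene *byr2+* (-1.56), which reached 694 ± 39.9 in *ppk18*∆ *cek1*∆ and 1941 ± 35.9 in the wild type at 1 h (SD, n = 3 each). The allantoicase gene *dal2+* (-1.71) was below 0 among the scavenging genes, with 7 of 30 below 0 and 10 above. The shares over all genes tested were 21.7% below and 23.7% above, so these 2 counts say little about the scavenging list.

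Genes with a response above the wild type were of several kinds. The biotin transporter gene *vht1+* had 28926, 27029 and 27273 normalised counts at 1 h and 29626, 31411 and 33052 in MM in *ppk18*∆ *cek1*∆, against 4062, 4208 and 4528 at 1 h and 29466, 31709 and 37643 in MM in the wild type. It stayed close to its MM level in the deletion strain, where its sign depends on the scaling, and fell in the wild type (difference of 2.77 with an SE of 0.112, adjusted *p* = 7.09e-14 by limma and Benjamini-Hochberg). The homocitrate synthase gene *lys4+*, of lysine synthesis, had the same pattern, with 15836 ± 1548 at 1 h in *ppk18*∆ *cek1*∆ and 4319.6 ± 146 in the wild type (SD, n = 3 each, difference of 1.87). In the amino acid biosynthesis list 36 of 47 differences were above 0 and 3 below. The methyltransferase gene SPCC70.08c had 8213, 7074 and 5664 at 1 h in *ppk18*∆ *cek1*∆, against 888, 909.7 and 955 in the wild type (difference of 2.65). The others were the acetyltransferase gene *aca1+* (2.45), *amt3+* (2.37), SPBC1773.12 (2.32), the F-box gene *pof15+* (2.29), SPBC23G7.13c, annotated as a urea transporter (2.1), and the retrotransposons Tf2-6 (2.83) and Tf2-4 (1.72), whose near-identical copies make single values uncertain. The differences for *amt1+* (0.97), *gcn2+* (0.94), *ppk31+* (0.99) and *met17+* (1.49) were also called. Ribosomal protein genes fell less than in the wild type, with 136 of 138 differences above 0 and 0 below.

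A larger rise did not always end at a higher level. The difference for *nrg1+* was 2.93 (SE of 0.142, adjusted *p* = 5.22e-13 by limma and Benjamini-Hochberg), but its level at 1 h was 20624 ± 1108 in *ppk18*∆ *cek1*∆ and 20002 ± 1272 in the wild type, and the MM levels were further apart, with 66.6 ± 8.97 and 495 ± 4.40 (SD, n = 3 each). The MM level, which was not tested between strains, was also apart for *isp5+* (difference of 1.59), with 381, 378 and 264 in MM in *ppk18*∆ *cek1*∆, against 851, 766 and 861 in the wild type. Values at 4 h in MM-N, which were not tested here, show how some differences at 1 h stood later. By then SPAC4H3.03c stood at 5478 ± 105 in *ppk18*∆ *cek1*∆ and 4247 ± 22.6 in the wild type, *hsp9+* at 145924 ± 10337 and 58572 ± 1229, and *ntp1+* at 17109 ± 331 and 17370.4 ± 554 (SD, n = 3 each), so these genes, which were below the wild type at 1 h, were close to or above it at 4 h. The gene *mug147+* was still below the wild type at 4 h, and no tally was made over all genes below it at 1 h. For *vht1+* (30652 ± 2405 and 1137 ± 67.5) and *amt3+* (1751 ± 222 and 73.5 ± 5.36, SD, n = 3 each) the gap was wider than at 1 h.

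**Figure D5:**
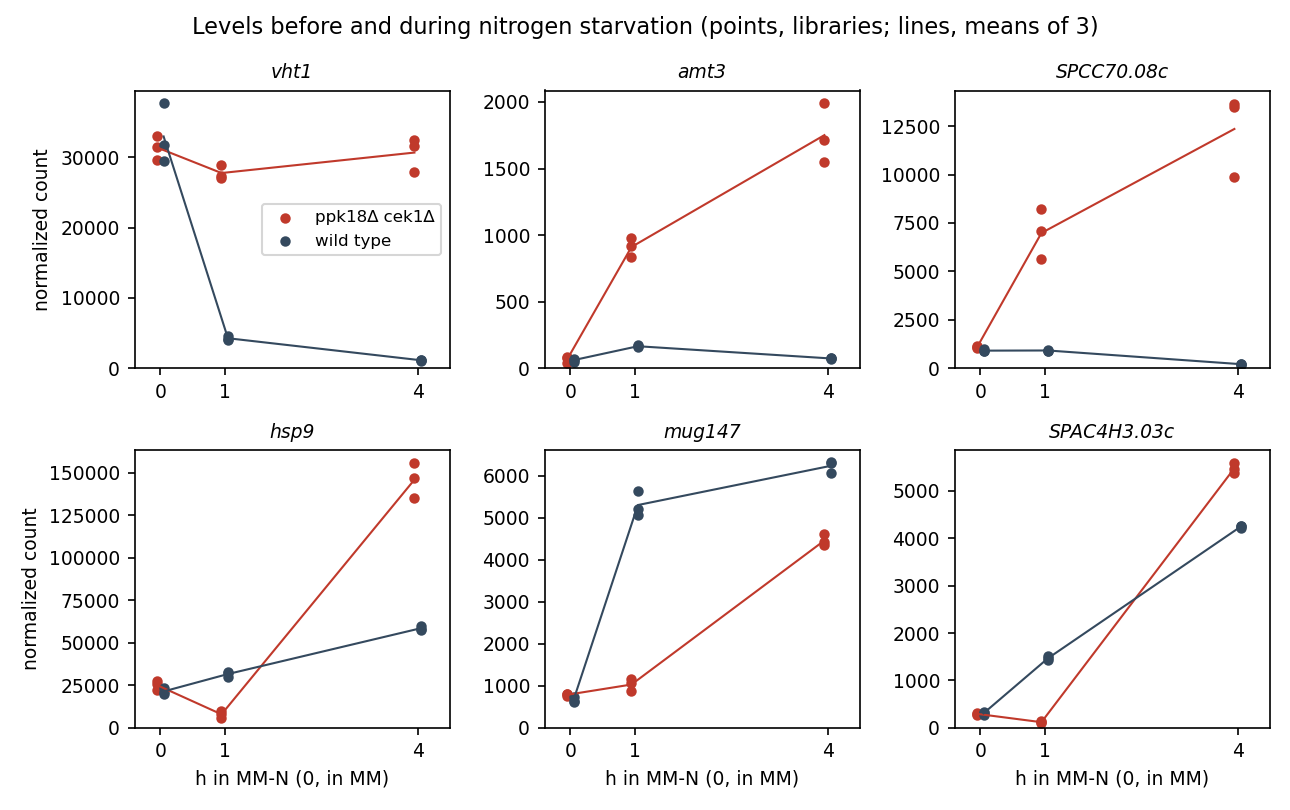
Normalised counts of 6 genes in MM (0 h) and at 1 h and 4 h of starvation in *ppk18*∆ *cek1*∆ (red) and the wild type (dark), with points for libraries and lines through the means of 3. In the upper panels the strains part at 1 h and stay apart at 4 h, and in the lower panels *hsp9+* and SPAC4H3.03c are below the wild type at 1 h and above it at 4 h, while *mug147+* is still below it.

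The response was last compared with that of *igo1*∆, the strain without the target of Greatwall. No gene was called different (0 of 6036, 0.0%, limma with Benjamini-Hochberg adjustment), 399 genes had an unadjusted *p* below 0.05, and edgeR and DESeq2 on the recovered reads also called 0 (399 and 339 at an unadjusted *p* below 0.05). The smallest adjusted *p* was 0.616. The median over genes of the half-width of the 95% interval of a difference, from its standard error, was 0.20 on the log2 scale, before any adjustment for the number of genes, so that differences of this size and larger ones could have gone uncalled. Of 5421 genes with a mean of at least 50, 98.7% differed by less than 0.5 on the log2 scale between these strains, against 77.3% between *ppk18*∆ *cek1*∆ and the wild type. The largest difference among these 5421 was -2.69, for the ribosomal RNA gene SPRRNA.50 (-3.19 in *ppk18*∆ *cek1*∆ and -0.51 in *igo1*∆, not called). Ribosomal RNA was depleted from these samples, and what was left varied, with 0.107, 0.415 and 0.185% of the normalised counts in the *ppk18*∆ *cek1*∆ libraries at 1 h. The 12 Tf2 retrotransposon genes tested had medians of 2.14 in *ppk18*∆ *cek1*∆ and 2.92 in *igo1*∆. Of these 12 Tf2 genes, 9 also had a response above the wild type. Some of the other genes named above for a difference from the wild type had closer values in the deletion strains. Thus *vht1+* changed by -0.18 in *ppk18*∆ *cek1*∆ and 0.03 in *igo1*∆, *amt3+* by 3.81 and 3.82, and SPAC4H3.03c by -1.32 and -1.52. The values were -1.68 and -1.67 for *hsp9+*, and 8.26 and 8.02 for *nrg1+*. No tally was made over all genes that differed from the wild type.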

How the data were processed

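The deposited signal values are read counts per gene that the authors scaled with DESeq2 size factors, a factor per library. RNA was depleted of ribosomal RNA and made into libraries with a stranded kit. The submitters' processing notes name Trimmomatic 0.38, HISAT2 2.1.0, featureCounts (Subread 1.6.3) and the build ASM294v2, and the strand setting of the counting is not given in the sources used here. All values (100% in each library, tolerance of 0.1 read) were whole multiples of the library's step, so read numbers were recovered. Of 7001 genes, 6852 were matched by identifier to RefSeq for names, types, products and overlaps.

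The log2(normalised count + 1) values of the 27 time course libraries were fitted by limma 3.58.1 (R 4.3.3, 9 group means, variance trend) for the 6036 genes with a mean of at least 10, with Benjamini-Hochberg adjustment and a threshold of 0.05. The pseudocount of 1 makes changes of weakly expressed genes smaller. Responses of strains were compared by the contrast of their 1 h minus MM differences. The code was tested on simulated data. Genes named by rule are the 15 coding genes and 4 non-coding RNAs of each direction with the largest called change from MM to 1 h (mean of 50 or more, groups without overlap), and the 10 coding genes of each direction with the largest called difference from the wild type (same mean, strains without overlap at 1 h). Other genes named are the deleted genes and list members. The members and the lists were chosen with earlier results of these data known. Subgroups of lists were formed from gene names and products after the values were seen.

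Deviations of same-numbered libraries from their group means were correlated. Between *ppk18*∆ *cek1*∆ and *igo1*∆ each correlation was over 0.1 (0.14 to 0.43 at 1 h, 0.12 to 0.34 in MM). No source says what a number marks. The main fit, edgeR and DESeq2 used no pairs between these strains. Pairs entered only through the replicate blocks among the alternatives, which also called 0 genes between them. Between 1 h and MM of *ppk18*∆ *cek1*∆ they were -0.01 to 0.23, and no pairing was assumed. Alternatives were a pseudocount of 10, minimum means of 0 and 50, quantile normalisation, scaling to the same total, no trend, a fit of the compared groups alone, replicate blocks, edgeR 4.0.16 and DESeq2 1.42.0 on the recovered reads, and leaving out each library. The chi-square per gene between replicates was at least 8.66, so none were copies. The 4 overexpression libraries were not used.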

Additional observations from a re-analysis of the deposited data

Results flagged for a closer look

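The response to 1 h without nitrogen differed between *ppk18*∆ *cek1*∆ and the wild type by the limma test of the difference (Benjamini-Hochberg adjustment), with 1429 genes above 0 and 1307 below 0 of 6036. Values here are differences on the log2 scale. Among genes named by rule, those above 0 were Tf2-6 (2.83), *vht1+* (2.77), SPCC70.08c (2.65), *aca1+* (2.45), *amt3+* (2.37), SPBC1773.12 (2.32), *pof15+* (2.29), SPBC23G7.13c (2.1), *lys4+* (1.87) and Tf2-4 (1.72). Those below 0 were SPAC4H3.03c (-3.57), *lsd90+* (-2.95), *ddr48+* (-2.76), *mug147+* (-2.61), SPBC24C6.09c (-2.55), *hsp9+* (-2.25), *ght3+* (-2.24), SPAC22F8.05 (-2.19), *hhy1+* (-2.07) and SPCC338.18 (-2.03). Further nutrient and signalling genes above 0 were *nrg1+* (2.93), *isp5+* (1.59), *met17+* (1.49), *ppk31+* (0.99), *amt1+* (0.97) and *gcn2+* (0.94). Further genes below 0 were *hri1+* (-1.73), *ntp1+* (-1.73), *dal2+* (-1.71), *tps1+* (-1.64) and *byr2+* (-1.56).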

How the results depend on the processing

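Scaling to the same total gave 1371 genes lower in *ppk18*∆ *cek1*∆ at 1 h, with 1134 higher and 458 lower past 2-fold. It also turned the sign of *vht1+* (0.18), *lys4+* (0.33), *gdh2+* (0.067), the phosphatase gene *ppa2+* (0.13) and the medians of the Greatwall (0.13), amino acid biosynthesis (0.14) and proteasome (0.062) lists, while quantile normalisation turned *vht1+* (0.22), *lys4+* (0.49) and the amino acid list (0.11). The Greatwall list median was between -0.25 and 0.096 when single libraries were left out, and 0.096 came without MM replicate 3. Between *ppk18*∆ *cek1*∆ and *igo1*∆, quantile normalisation called 1 gene, and leaving out single libraries called 0 to 1, with 1 without *igo1*∆ MM replicate 1 or *ppk18*∆ *cek1*∆ MM replicate 3. With the replicate number as a block, 2302 genes were higher and 2275 lower at 1 h, and the block within each time, chosen after seeing the data, called 0 genes against *igo1*∆ and 1296 above and 1244 below the wild type. Of 184 results on single genes, 172 kept direction and side of the threshold under every alternative run. The causes were not tested. Genes of few reads and overlapping or near-identical genes are the least certain.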

Other observations

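Some gene groups outside the lists above were looked at after their values were seen. Of 12 Tf2 retrotransposon genes tested, 11 were higher and 0 lower at 1 h in *ppk18*∆ *cek1*∆, with a median log2 fold change of 2.14, against 0.63 in the wild type, and for 9 the difference was called above 0 (limma with Benjamini-Hochberg adjustment). Their copies are near-identical, so they do not count as separate genes. Of 23 genes of the mitochondrial genome, 12 were higher and 0 lower, with medians of 0.52 in *ppk18*∆ *cek1*∆ and 0.30 in the wild type. Of 32 small nucleolar RNAs, which guide the modification of ribosomal RNA, 9 were higher and 8 lower, with medians of 0.02 in *ppk18*∆ *cek1*∆ and -0.55 in the wild type, and 15 differences were above 0 and 0 below. Over all genes tested, 23.7% of the differences were called above 0 and 21.7% below.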
